A study of Rattus norvegicus with 12 samples.

Results

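The genes described here encode the nuclear subunits of respiratory complex III, complex IV and ATP synthase, as measured in the left ventricle of ageing rats. Probe sets were taken by the gene symbol in the array's annotation: every probe set with a single symbol that begins with Uqcr, Atp5 or Cox followed by a digit from 4 to 8, or that is Cyc1 or Cycs. The rule found 46 probe sets for 41 genes, of 31042 probe sets that are not controls and 14217 genes with a probe set of their own. Of these, 42 probe sets for 39 genes were bright enough to be tested, beside 18626 tested probe sets in all. They divide into 9 probe sets for 8 genes of complex III, 15 for 15 genes of complex IV, and 18 for 16 genes of ATP synthase. No probe set carried Cycs as its only symbol, so cytochrome c itself has no member.

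The 12 arrays held left ventricular RNA of female Sprague-Dawley rats aged 16 months, 4 arrays for each of 3 housing conditions. Sedentary rats (SED) lived solely in a standard cage. Physically active rats (PA) were moved to a large box for 1 h, 2 times weekly, and exercising rats (EX) had lifelong access to voluntary exercise. The series' design text gives 12 animals per group and 4 animals pooled on each array, a number of pools that does not match the 4 arrays listed per group, so arrays may not be independent pools and p-values measure only the spread between arrays. Of 10 listed cardiomyocyte markers, 9 were on the array and all 9 were above the filter on dim probe sets. Of 7 skeletal muscle markers on the array, the fast-fibre genes Myh2, Myh4, Tnni2 and Actn3 and the myogenic factor Myod1 were below it, and the other 2 genes had 6 probe sets above it, at a mean level of 10.83 to 11.05 over the 12 arrays. In whole tissue, fewer cells of a type and less RNA per cell cannot be told apart.

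Complex III takes electrons from ubiquinol and hands them to cytochrome c, complex IV passes them from cytochrome c to oxygen, and both move protons out of the mitochondrial matrix. ATP synthase lets the protons return through its membrane ring, which turns a shaft in the catalytic head and drives ATP formation. The heart depends on this pathway for nearly all of its ATP, and several complex IV subunits exist as a heart and muscle form and a more widely expressed form.

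Differences between the 3 groups were small for these genes, and none passed the test. limma called 0 of the 42 members in any of the 3 pairwise comparisons or in the F test over the 3 groups at an adjusted p of 0.05, and over all tested probe sets the called share was 0% in each. At an unadjusted p under 0.05, limma gave 0 members in EX against SED, where 9.30% of all tested probe sets were higher and 6.30% lower. PA against SED gave 2 members, both higher, where 9.28% of all were higher and 5.97% lower. EX against PA gave 1 member, lower, where 1.43% of all were lower and as many higher, and the F test gave 1, where 13.4% of all passed. The lowest adjusted p of any member by limma was 0.469 in EX against SED, 0.233 in PA against SED, 1 in EX against PA and 0.336 in the F test. Values are log2 signals, so a difference of 0.25 is 1.19-fold and a difference of 0.5 is 1.41-fold.

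The 95% intervals set how large an undetected difference could be. In EX against SED the interval lay within ±0.5 for 39 of the 42 members and within ±0.25 for 16. In PA against SED these counts were 36 and 13, and in EX against PA they were 36 and 21. With sedentary array 1 left out, 25 members lay within ±0.25 in each of the 3 comparisons, and 38, 39 and 37 within ±0.5. The median distance from a difference to the end of its interval was 0.21 with all arrays. Most members therefore had intervals that excluded a change of 1.41-fold, and with all 12 arrays a change of 1.19-fold was outside the interval for 21 members at most.

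By complex, the differences were small and PA had the higher means. In EX against SED the median difference was 0.03 over all members, 0.04 in complex III, -0.01 in complex IV and 0.03 in ATP synthase, beside 0.06 over all tested probe sets. Of the 42 members, 25 had the higher mean in EX, 14 the lower, and Cox6c, Atp5f1a and Atp5f1d had equal means, where 59.7% of all tested probe sets were higher and 39.8% lower. In PA against SED the medians were 0.08 over all members, 0.11 in complex III, 0.04 in complex IV and 0.09 in ATP synthase, beside 0.06 over all. The higher mean was in PA for 36 of 42 members, namely 8 of 9 in complex III, 11 of 15 in complex IV and 17 of 18 in ATP synthase, where 60.9% of all were higher and 38.6% lower. In EX against PA the median was -0.04 and 31 of 42 had the lower mean in EX, where 52.3% of all did and 46.9% had the higher. Of the 1311 tested probe sets with a mean of 11 or more, 827 were higher in PA than in SED and 472 lower. In EX against PA, 802 of these bright probe sets were lower and 489 higher. The members include 35 at that level. Comparisons that share a group are not independent of each other.

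**Figure D1:**
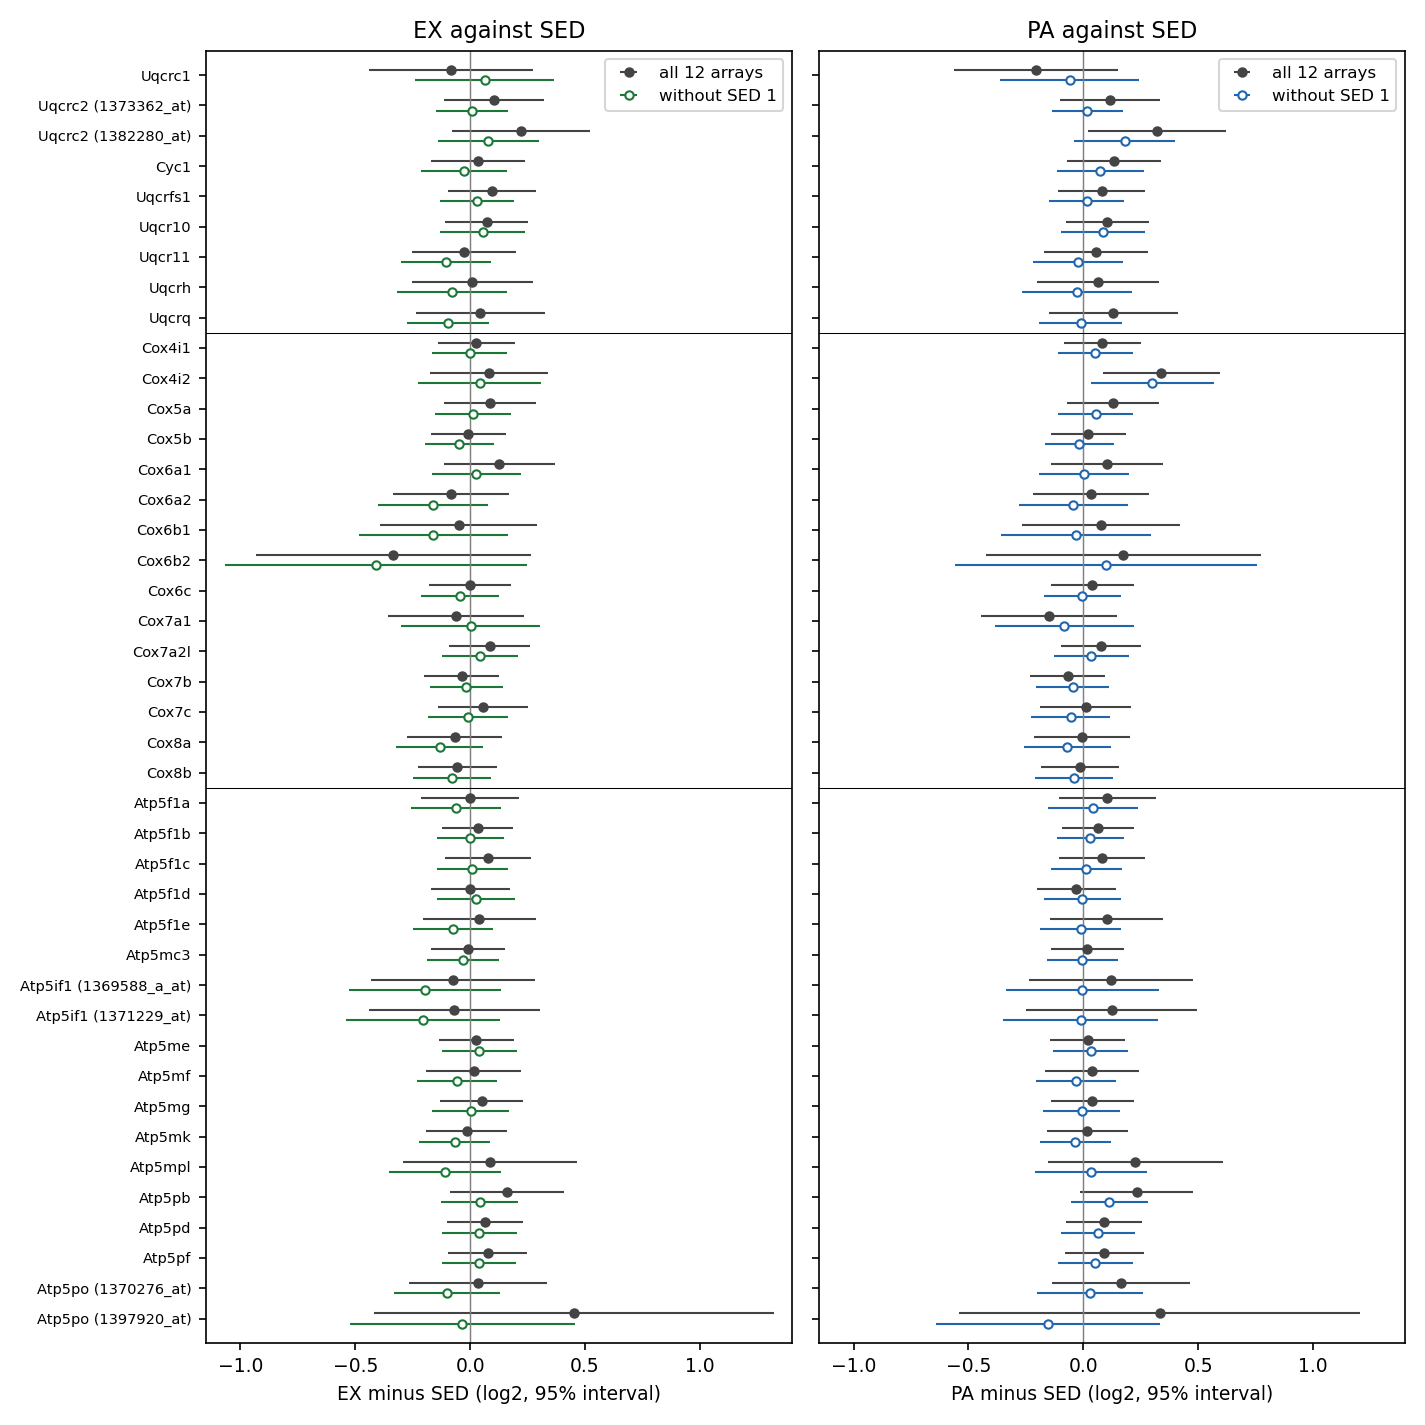
Difference in log2 signal for each of the 42 tested member probe sets in EX against SED and PA against SED, from complex III at the top to ATP synthase at the bottom, with all 12 arrays (filled points) and without sedentary array 1 (open points); bars are 95% intervals. In PA against SED 36 points lie right of 0 with all arrays and 20 without sedentary array 1.

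The excess of higher means in PA over SED rested on 1 array, while the count in EX against PA uses no SED array. Sedentary array 1 stood apart from the other 11: its mean correlation with them over all probe sets was 0.964, against 0.987 to 0.989 for the rest, and its interquartile range was 3.58, against 3.73 to 4.04. Its 3' minus 5' difference for the control transcript Gapdh, a measure of RNA integrity, was 1.56, against 0.96 to 1.35, and that for actin was 1.70, against 1.37 to 1.67. It read lowest of the 12 arrays for 31 of the 42 members, where it was lowest for 34.2% of all tested probe sets, and highest for 1, Uqcrc1, where it was highest for 21.1% of all. These were 7 of 9 probe sets in complex III, 9 of 15 in complex IV and 15 of 18 in ATP synthase. The mean level of the 9 cardiomyocyte markers was 11.12 on this array, with 11.38 to 11.60 over the EX arrays, 11.36 to 11.56 over PA and up to 11.55 over SED. A few probe sets carry that mean: the median of the 12 cardiomyocyte probe sets on this array against the other sedentary arrays was -0.07, with 9 below and 3 above, beside -0.07 over all tested probe sets. Relative to the mean over the 12 arrays it read -0.49 for 13 leukocyte markers, -0.29 for 7 fibroblast, -0.23 for 4 smooth muscle, -0.16 for 2 adipocyte, 0.10 for 5 endothelial, 0.07 for 2 skeletal muscle and 0.49 for 2 brown adipocyte markers that were tested. All tested probe sets read -0.13 on this array by the same measure. The leukocyte markers deviated further on sedentary array 3, at 0.94, than on sedentary array 1. The part of RNA integrity and of cell content in the low values of sedentary array 1 was not tested.

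Members differed on sedentary array 1 from the other 3 sedentary arrays by a median of -0.26, which was -0.32 in complex III, -0.17 in complex IV and -0.26 in ATP synthase. Of the 42 members, 37 were lower there (88.1%), beside 55.6% of all tested probe sets and 54.5% of the 1311 tested probe sets with a mean of 11 or more, a limit that 35 of the 42 members reach. The 5 members that read higher there were Uqcrc1 by 0.58, Cox7a1 by 0.26, Atp5f1d by 0.11, Cox7b by 0.08 and Atp5me by 0.05. Those that read lowest against the other sedentary arrays were the dimmer Atp5po probe set at -1.94, Atp5mpl at -0.78, Uqcrq at -0.57 and the dimmer Uqcrc2 probe set at -0.56. The subunits of complex I, the entry point for electrons from NADH, had a median of -0.29 on the same array.

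**Figure D2:**
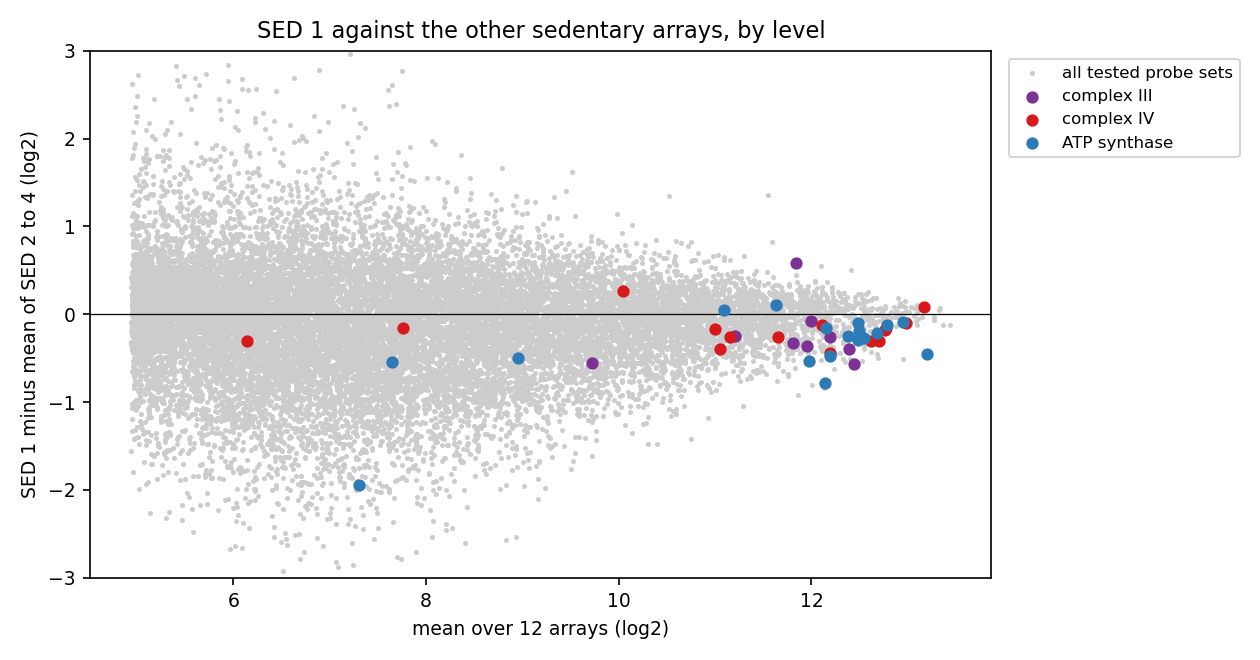
Difference between sedentary array 1 and the mean of the other 3 sedentary arrays (log2, vertical axis) against the mean log2 signal over all 12 arrays (horizontal axis), for all tested probe sets and for the 42 members by complex. Of the members, 37 lie below 0, and 31 probe sets of all those tested lie outside the vertical range of ±3 and are not drawn.

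Most differences from SED were nearer to 0 in PA when sedentary array 1 was left out. The median difference in PA against SED became -0.003 over all members, 0.01 in complex III, -0.02 in complex IV and 0.005 in ATP synthase, and 20 members had the higher mean in PA and 22 the lower, where 60.3% of all tested probe sets were higher and 39.5% lower. In EX against SED the median became -0.02, with 18 members higher and 24 lower, where 56.9% of all were higher and 42.9% lower. Leaving out the array turned 16 PA against SED differences from higher to lower and none the other way, and 36 of 42 were smaller in size without it. In EX against SED 10 turned from higher to lower and 2 from lower to higher, and 21 of 42 were smaller in size. limma called 0 members without the array, where 2 of all tested probe sets (0.0107%) passed in EX against SED and 0% in the other 2 comparisons. At an unadjusted p under 0.05 limma gave 0 members in EX against SED, where 8.13% of all were higher and 5.89% lower. PA against SED gave 1, Cox4i2, higher, where 7.29% of all were higher and 4.97% lower, and EX against PA gave 1, again Cox4i2, lower, where 2.67% of all were lower and 2.57% higher. The lowest limma adjusted p was 0.551 in EX against SED, 0.355 in PA against SED and 0.909 in EX against PA.

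**Figure D3:**
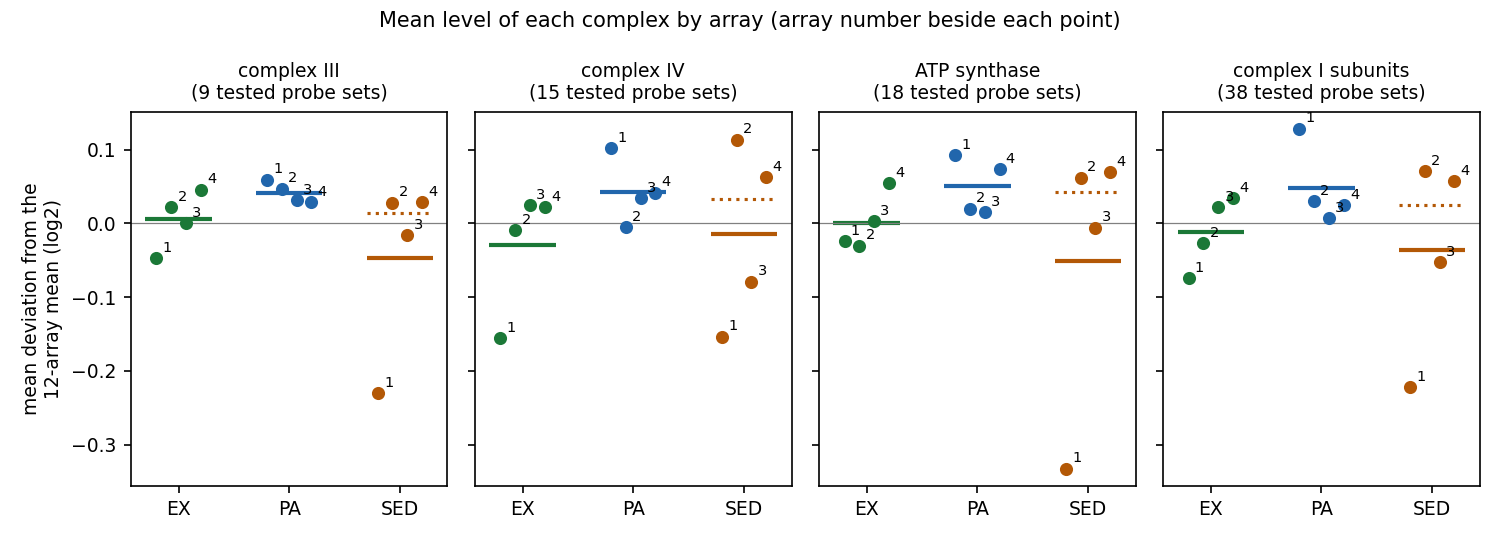
Mean deviation of the tested members of each complex from their own mean over the 12 arrays (log2), for each numbered array of the EX, PA and SED groups, with complex I subunits beside them; lines are group means, dotted without sedentary array 1. Sedentary array 1 reads -0.23 in complex III, -0.15 in complex IV and -0.33 in ATP synthase, and in these 3 complexes the other 11 arrays lie between -0.16 and 0.11. The dimmer Atp5po probe set, at 5.59 on sedentary array 1 against a mean of 7.31, weighs on the ATP synthase value.

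Outside that array the members varied little, as did other bright probe sets. The median over members of the SD between arrays was 0.07 in EX and 0.07 in PA. In SED it was 0.16, and 0.08 without array 1. Over the 1311 tested probe sets with a mean of 11 or more it was 0.07 in EX and 0.075 in PA. In SED it was 0.11 over those probe sets, and 0.06 without array 1. In complex IV, EX array 1 and sedentary array 1 had mean deviations of -0.16 and -0.15. PA array 1 and SED array 2 were the high ones, at 0.10 and 0.11. The dim Cox6b2 weighs on these means: it read 5.27 on EX array 1 and 6.73 on SED array 2, against a mean of 6.14. EX array 1 was lowest of the 12 for 3 of the 15 probe sets, where it was lowest for 6.33% of all tested. Sedentary array 1 was lowest for 9 of the 15, where it was lowest for 34.2% of all. PA array 1 read highest of the 12 for 11 of the 42 members, where it was highest for 7.88% of all tested probe sets. After each group's mean was taken off, the median correlation between pairs of members over the 12 arrays was 0.58, and 0.32 over 11 arrays without sedentary array 1; the pairs share the same arrays and their overall brightness.

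**Figure D4:**
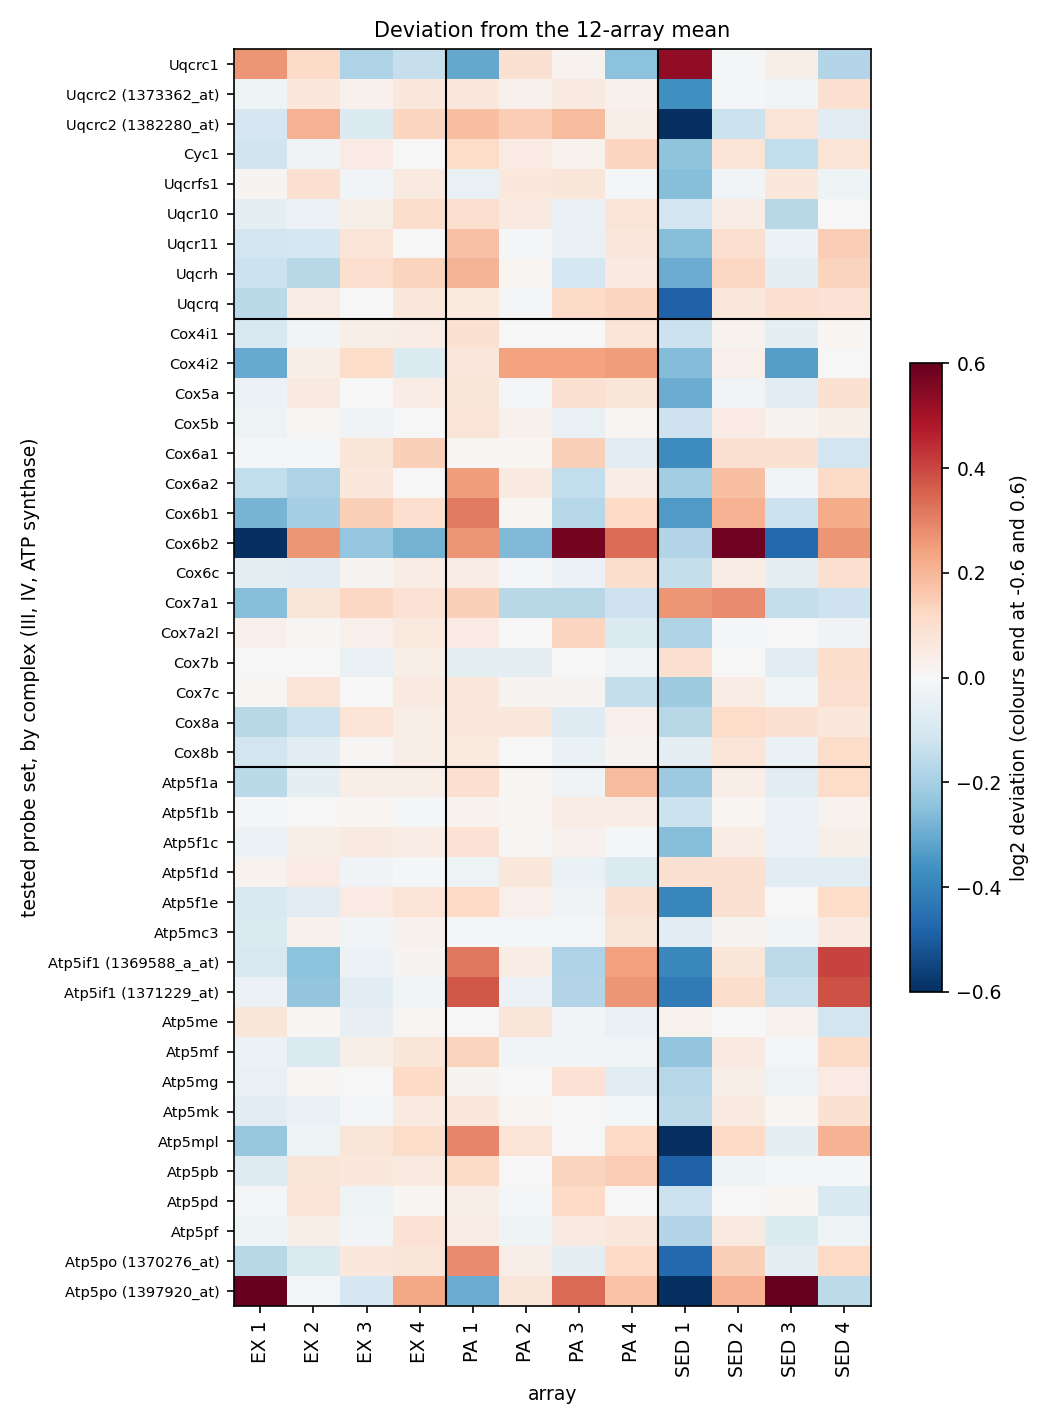
Deviation of each tested member (rows, by complex) from its own mean over the 12 arrays (columns, by group), in log2 units. Sedentary array 1 is the lowest column for 31 of the 42 rows, and Uqcrc1 is the row in which it is highest.

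Promoter sequence is given as a description of these genes, which lie on 16 chromosomes. Whether it bears on the low values of sedentary array 1 was not tested. Windows of 250 bases before to 50 bases after the start, from RefSeq on the GRCr8 build, matched 34 of the 41 genes. Letters of 3 motifs were searched on both strands. The consensus palindrome of nuclear respiratory factor 1, in capitals in Atp5po, was in 2 of the 34 windows (5.88%) and in 0.852% of all 33469. The same letters with any base at the sixth place, which takes in the first, were in 6 (17.6%) and in 4.25% of all. CCGGAAG, the core of ETS-family factors such as GABP, was in 11 (32.4%) and in 8.75% of all. The median GC content was 54.3% in the 34 and 51.7% in all. The 250 bases before the start follow for 5 members, 5' to 3', chosen because each holds a match and because the array left out above moved the gene or, for Cox8a, because it holds 2 matches close to the start. Capitals mark the match, which on the reverse strand reads as its reverse complement. The windows are Uqcrc1 at chr8:118467973-118468222 on the plus strand, Uqcrc2 at chr1:184598990-184599239 on the plus strand, Cox8a at chr1:213833624-213833873 on the minus strand, Atp5mpl at chr6:136845641-136845890 on the minus strand and Atp5po at chr11:44657484-44657733 on the minus strand.
Uqcrc1: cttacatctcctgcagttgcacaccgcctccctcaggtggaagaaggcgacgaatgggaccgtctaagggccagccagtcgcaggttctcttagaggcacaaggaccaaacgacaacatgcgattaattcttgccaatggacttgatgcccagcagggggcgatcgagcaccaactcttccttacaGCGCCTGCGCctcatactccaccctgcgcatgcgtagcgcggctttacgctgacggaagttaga
Uqcrc2: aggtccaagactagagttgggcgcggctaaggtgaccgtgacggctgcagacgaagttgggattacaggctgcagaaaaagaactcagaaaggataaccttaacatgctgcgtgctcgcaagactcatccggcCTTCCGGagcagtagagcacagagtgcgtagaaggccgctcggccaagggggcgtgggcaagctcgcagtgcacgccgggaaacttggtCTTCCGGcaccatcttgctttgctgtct
Cox8a: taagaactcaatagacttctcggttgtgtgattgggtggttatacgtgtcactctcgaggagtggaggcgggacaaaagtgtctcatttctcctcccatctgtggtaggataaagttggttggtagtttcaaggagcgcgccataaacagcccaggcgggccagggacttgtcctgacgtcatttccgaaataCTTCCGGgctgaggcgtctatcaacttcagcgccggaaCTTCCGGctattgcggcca
Atp5mpl: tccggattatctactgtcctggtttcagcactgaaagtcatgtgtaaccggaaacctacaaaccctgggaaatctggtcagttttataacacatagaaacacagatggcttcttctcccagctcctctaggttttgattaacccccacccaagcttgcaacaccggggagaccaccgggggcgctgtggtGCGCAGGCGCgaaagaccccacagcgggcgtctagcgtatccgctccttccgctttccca
Atp5po: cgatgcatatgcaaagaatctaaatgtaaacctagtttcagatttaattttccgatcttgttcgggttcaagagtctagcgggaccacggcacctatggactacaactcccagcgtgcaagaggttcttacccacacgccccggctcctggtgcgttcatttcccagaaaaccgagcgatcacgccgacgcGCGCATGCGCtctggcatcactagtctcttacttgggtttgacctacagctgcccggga
Counted from the start, with the base before it at -1, the match lies at -59 to -50 in Atp5po, -60 to -51 in Atp5mpl and -64 to -55 in Uqcrc1. Uqcrc2 has the ETS letters at -117 to -111 and -28 to -22, and Cox8a has them at -57 to -51 and -19 to -13. Uqcrc1, which read higher on sedentary array 1, and Atp5po, which read lower, both hold the letters of the second motif.

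Complex III is built around the core subunits Uqcrc1 and Uqcrc2, which face the matrix, and its electrons pass through the Rieske iron-sulphur protein Uqcrfs1 and cytochrome c1, Cyc1. Uqcrc1 read 12.10, 11.95, 11.65 and 11.70 in EX, 11.53, 11.93, 11.86 and 11.59 in PA, and 12.37, 11.83, 11.87 and 11.66 in SED. The highest value was that of sedentary array 1, and the 3 groups overlapped. Its difference in EX against SED was -0.08 ± 0.16 (SE), with a 95% interval of -0.44 to 0.28, and 0.06 without sedentary array 1.

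The brighter Uqcrc2 probe set read 12.36, 12.45, 12.41 and 12.45 in EX, 12.45, 12.41, 12.44 and 12.41 in PA, and 12.02, 12.38, 12.37 and 12.48 in SED. Apart from sedentary array 1 all of its values lay within a narrow band. The second, dimmer Uqcrc2 probe set read 9.62, 9.93, 9.64 and 9.85 in EX, 9.90, 9.87, 9.91 and 9.76 in PA, and 9.12, 9.59, 9.80 and 9.65 in SED. It was 1 of the 2 members with an unadjusted p under 0.05 in PA against SED, with a difference of 0.32 ± 0.14 (SE), a 95% interval of 0.02 to 0.62 and a limma adjusted p of 0.303. Its difference was 0.18 without sedentary array 1, and the PA and SED values overlapped in both cases.

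Cyc1 read 11.09, 11.19, 11.26 and 11.21 in EX, 11.32, 11.26, 11.23 and 11.34 in PA, and 10.97, 11.29, 11.06 and 11.29 in SED. Sedentary arrays 1 and 3 were its lowest values, and the groups overlapped. Uqcrfs1 differed by 0.10 in EX against SED and by 0.08 in PA against SED, and by 0.03 and 0.01 without sedentary array 1. Among the small subunits, which surround the core, Uqcrq read 12.28, 12.49, 12.44 and 12.51 in EX, 12.50, 12.43, 12.56 and 12.57 in PA, and 11.96, 12.51, 12.54 and 12.53 in SED. Its 3 other sedentary values lay inside the range of the active groups. Uqcr11 differed by -0.08 in EX against PA. Uqcr10 differed by 0.07 in EX against SED, by 0.11 in PA against SED and by -0.03 in EX against PA.

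Complex IV held the member with the largest difference relative to its error. Cox4i2 is the alternative form of subunit 4, known for its oxygen-dependent expression and its abundance in lung, and Cox4i1 is the common form. Cox4i2 read 7.46, 7.80, 7.87 and 7.68 in EX, 7.83, 8.0, 8.0 and 8.01 in PA, and 7.50, 7.79, 7.43 and 7.76 in SED. All 4 PA values were above all 4 SED values, while EX and PA overlapped. The group means were 7.70 ± 0.18 in EX, 7.96 ± 0.09 in PA and 7.62 ± 0.18 in SED (SD, n = 4). The difference in PA against SED was 0.34 ± 0.12 (SE), or 1.27-fold, with a 95% interval of 1.06-fold to 1.51-fold, and a limma p of 0.0134 that became 0.233 after adjustment over all tested probe sets. With sedentary array 1 left out it was 0.30 ± 0.12 (SE) with a limma adjusted p of 0.355, and under quantile normalization 0.23 with 0.443. In EX against PA it was -0.26 ± 0.12 (SE), with a limma p of 0.0486 and an adjusted p of 1.

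Cox4i1 read 12.01, 12.09, 12.14 and 12.15 in EX, 12.20, 12.11, 12.11 and 12.19 in PA, and 11.98, 12.13, 12.05 and 12.12 in SED. The 3 groups overlapped, with differences of 0.03 in EX against SED and 0.08 in PA against SED. Whether the isoforms of a subunit changed unequally was tested within arrays as the difference between their probe sets, over 9 tests of 3 pairs and 3 comparisons. Cox4i1 minus Cox4i2 was 4.19 ± 0.12 in PA and 4.45 ± 0.13 in SED (SD, n = 4), a difference of -0.26 with an exact two-sided permutation p of 0.0857 and an adjusted p of 0.257. The smallest p that 4 arrays against 4 allow is 0.0286.

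**Figure D5:**
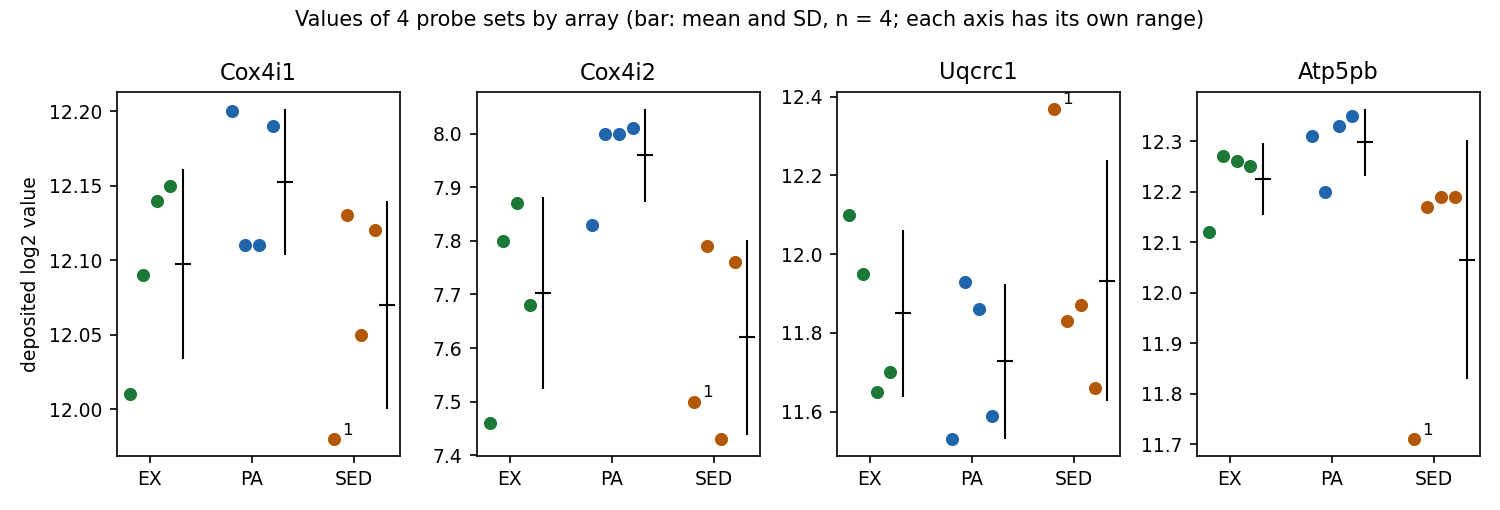
Log2 signal of Cox4i1, Cox4i2, Uqcrc1 and Atp5pb on each of the 12 arrays by group, with the group mean and SD. The 4 PA values of Cox4i2 (7.83 to 8.01) lie above the 4 SED values (7.43 to 7.79), and sedentary array 1 is the highest array for Uqcrc1 (12.37) and the lowest for Atp5pb (11.71).

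The other isoform pairs did not pass the test either, and the Cox6a pair had the smallest p of the 9. Cox6a2, the heart and muscle form of subunit 6a, read 12.47, 12.43, 12.68 and 12.62 in EX, 12.87, 12.67, 12.47 and 12.66 in PA, and 12.41, 12.80, 12.60 and 12.73 in SED. Cox6a1, the widely expressed form, read 11.04, 11.04, 11.12 and 11.19 in EX, 11.06, 11.06, 11.19 and 10.98 in PA, and 10.67, 11.14, 11.14 and 10.93 in SED. The groups overlapped for both. Cox6a2 minus Cox6a1 was 1.45 ± 0.07 in EX and 1.67 ± 0.15 in SED (SD, n = 4), a difference of -0.21 with an exact two-sided permutation p of 0.0571 and an adjusted p of 0.257. The difference was -0.19 without sedentary array 1. Cox8b minus Cox8a, the heart and muscle form against the widely expressed form of subunit 8, differed by 0.01 in EX against SED and by -0.01 in PA against SED.

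Among the remaining complex IV subunits, Cox7a2l, a supercomplex assembly factor named for its likeness to subunit 7a, read 11.03, 11.01, 11.03 and 11.06 in EX, 11.05, 11, 11.13 and 10.92 in PA, and 10.82, 10.99, 11 and 10.98 in SED. Its EX values lay above all SED values, 11.01 against 11 at the nearest, with a difference of 0.09 ± 0.08 (SE) and a limma adjusted p of 0.636. It was 1 of 42 members whose EX and SED arrays did not overlap in the higher direction, where 4.39% of all tested probe sets did so, and 0 did so in the lower direction, where 3.51% did. In PA against SED, Cox4i2 and Atp5pb did not overlap, both higher, where 4.88% of all did so and 3.51% were apart in the lower direction. Leaving out an array cannot close such a gap, so the same members stay apart without sedentary array 1 by construction (in EX against SED 6.67% of all were then apart in the higher direction, in PA against SED 6.69%, and 4.76% in the lower), while the differences were 0.04 for Cox7a2l, 0.30 for Cox4i2 and 0.11 for Atp5pb. In EX against PA 0 members were apart, where 1.33% of all were higher and 1.45% lower.

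Cox5a and Cox5b, matrix-side subunits present in all tissues, differed by 0.09 and -0.01 in EX against SED and by 0.13 and 0.02 in PA against SED. Cox5b read 12.74, 12.78, 12.75 and 12.77 in EX, 12.85, 12.80, 12.73 and 12.78 in PA, and 12.65, 12.82, 12.79 and 12.81 in SED. Without sedentary array 1 its EX values lay below the 3 SED values, as those of 4.80% of all tested probe sets did, at a difference of -0.05. Cox7a1, the heart and muscle form of subunit 7a, read 9.79, 10.12, 10.17 and 10.13 in EX, 10.19, 9.88, 9.88 and 9.92 in PA, and 10.31, 10.33, 9.90 and 9.92 in SED. Its values split within each group, with SED arrays 1 and 2 and PA array 1 high and EX array 1 low. Cox6b2, the testis form of subunit 6b, was dim and scattered, reading 5.27, 6.41, 5.91 and 5.86 in EX, 6.41, 5.88, 6.72 and 6.48 in PA, and 5.97, 6.73, 5.68 and 6.41 in SED. Its difference in EX against PA was -0.51 ± 0.27 (SE), with overlapping groups and a limma p of 0.0881.

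In ATP synthase, the catalytic head subunits alpha and beta, Atp5f1a and Atp5f1b, differed little between groups. Atp5f1b read 12.78, 12.79, 12.80 and 12.78 in EX, 12.81, 12.80, 12.83 and 12.83 in PA, and 12.66, 12.80, 12.75 and 12.81 in SED. Sedentary arrays 1 and 3 gave the lowest values, and the groups overlapped. Atp5f1a differed by 0.00 in EX against SED and 0.11 in PA against SED, and Atp5mc3, which encodes a subunit of the membrane ring, by -0.01 and 0.02. The 5 head and stalk probe sets had medians of 0.03 and 0.08, and the 10 of the peripheral stalk and membrane part had 0.06 and 0.09. With sedentary array 1 left out these were 0.001 and 0.01 for the head and stalk and -0.02 and 0.03 for the peripheral stalk and membrane part.

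The peripheral stalk holds the head still while the ring turns, and its subunit b, Atp5pb, was the second member whose PA and SED arrays did not overlap. Atp5pb read 12.12, 12.27, 12.26 and 12.25 in EX, 12.31, 12.20, 12.33 and 12.35 in PA, and 11.71, 12.17, 12.19 and 12.19 in SED. Sedentary array 1 was far below the rest, and the lowest PA value, 12.20, was next to the highest SED value. The difference in PA against SED was 0.23 ± 0.11 (SE), with a 95% interval of -0.01 to 0.48 and a limma adjusted p of 0.351. It was 0.11 ± 0.08 (SE) when sedentary array 1 was left out, with a limma adjusted p of 0.583.

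Atp5po, the oligomycin sensitivity conferring protein that joins the stalk to the head, had 2 tested probe sets. The brighter read 11.81, 11.89, 12.04 and 12.05 in EX, 12.26, 12.02, 11.92 and 12.10 in PA, and 11.51, 12.12, 11.92 and 12.10 in SED. The dimmer read 7.95, 7.30, 7.21 and 7.54 in EX, 7.01, 7.38, 7.65 and 7.48 in PA, and 5.59, 7.52, 7.93 and 7.15 in SED. Its difference of 0.45 ± 0.40 (SE) in EX against SED rested on sedentary array 1 and was -0.03 without it. Atp5mpl, a small membrane subunit, read 11.91, 12.11, 12.21 and 12.25 in EX, 12.43, 12.22, 12.14 and 12.26 in PA, and 11.45, 12.26, 12.08 and 12.35 in SED. Its difference in PA against SED was 0.23 with the array and 0.03 without it.

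Atp5if1 encodes the inhibitor that stops ATP synthase from running backwards when the proton gradient collapses. Its brighter tested probe set read 8.86, 8.71, 8.92 and 8.97 in EX, 9.27, 9.0, 8.77 and 9.20 in PA, and 8.57, 9.03, 8.80 and 9.36 in SED. The second read 7.61, 7.41, 7.58 and 7.63 in EX, 8.02, 7.61, 7.47 and 7.91 in PA, and 7.22, 7.75, 7.51 and 8.03 in SED. Both probe sets placed the same arrays high, PA arrays 1 and 4 and SED array 4, and both gave a difference of -0.195 in EX against PA with overlapping groups.

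The 4 members below the filter were Cox6c-ps1, a transcribed pseudogene with a mean of 4.79, Cox7b2 at 2.99, an Atp5if1 probe set at 4.04 and an Atp5me probe set at 4.30, against a filter of 4.94. A further 7 probe sets listed a symbol of these families or Cycs together with other symbols and are given by no gene. All 7 were tested and limma called 0 of them.

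In the rest of the pathway the medians were also small. Of 38 complex I probe sets for 35 genes, limma called 0, with a median of 0.01 in EX against SED and 0.10 in PA against SED, and 30 of the 38 were higher in PA. Without sedentary array 1 the PA median was -0.002 and 18 were higher. Complex II, succinate dehydrogenase, had 5 probe sets for 4 genes, with medians of 0.05 and 0.11 and 0 called, and 0.002 and 0.06 without sedentary array 1. Unlike the members, all 5 stayed higher in PA without that array, where 60.3% of all tested probe sets were higher. Of the subunits encoded in mitochondrial DNA, COX1 differed by -0.02 and 0.00 and COX2 by -0.03 and -0.01. On sedentary array 1 the mean deviation of these 2 was -0.0004, beside -0.25 for the members.

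Assembly factors also gave 0 calls by limma. Those of complex IV, with 24 probe sets for 19 genes, had medians of 0.02 in EX against SED and 0.10 in PA against SED, and -0.02 and 0.03 without sedentary array 1. Cox11, which delivers copper to complex IV and is named here after its values were seen, differed from SED by -0.43 in EX and -0.45 in PA, with limma adjusted p of 0.134 and 0.165. These were -0.39 and -0.41 without sedentary array 1. Cox20, a chaperone of subunit 2, also chosen by its values, differed by 0.34 and 0.47, with limma adjusted p of 0.347 and 0.245.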

How the data were processed

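The 12 arrays are Affymetrix Rat Genome 230 2.0, each hybridised with labelled RNA of the left ventricle. The authors deposited 1 table of log2 signals. MAS5 and RMA are named in the submitters' processing notes, and which of them made the table is not given in the sources used here. The values were used as deposited. Of 31099 rows, 57 control rows were left out, and the upper 60% of the rest by mean signal, 4.94 or more, were tested: 18626 probe sets. Of the non-control probe sets, 20826 list 1 gene symbol, 436 several and 9780 none.

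limma 3.58.1 in R 4.3.3 fitted 3 group means to the 12 arrays and, separately, without sedentary array 1. Adjusted p-values are Benjamini-Hochberg values over all tested probe sets, called under 0.05. Isoform pairs were tested by exact permutation of arrays. Pairs with Cox7a2, Atp5mc1 or Atp5mc2 were not run, since their probe sets list several symbols. The script was tested on simulated data. The number of arrays limits the precision.

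Same-numbered arrays correlated from -0.21 to 0.13 after group means were removed. These values were not set against differently numbered arrays, so they cannot show whether the numbers pair arrays. The members and lists were chosen with earlier results of these data known. Named genes were the 2 smallest limma p per complex and comparison, a preset list of main subunits and isoforms, members below the filter, and those that moved most without sedentary array 1. In complex III, Uqcrq and Uqcr10 were described outside these rules. Alternatives covered normalization, filter, variance model, array weights, probe set choice and each array left out.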

Additional observations from a re-analysis of the deposited data

Results flagged for a closer look

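In each group of 4 arrays, a member's highest or lowest value was picked out where its gap to the nearest other array was above Dixon's critical value for the group's range. This marked 11 of 138 group values of the 46 member probe sets, 3 of them on sedentary array 1, and 0 of 12 group values of the complexes' mean deviations, and chance marks about 1 in 20. On sedentary array 1, Uqcrq read 11.96 where the other 3 arrays of its group read 12.51 to 12.54, Cox7a2l read 10.82 where they read 10.98 to 11, and Atp5pb read 11.71 where they read 12.17 to 12.19. On PA array 1, Cox4i2 read 7.83 where the others read 8.0 to 8.01, Cox7a1 read 10.19 where they read 9.88 to 9.92, and Atp5mf read 12.62 where all 3 others read 12.47. On EX array 1, Cox7a1 read 9.79 where the others read 10.12 to 10.17, and Atp5pb read 12.12 where they read 12.25 to 12.27. Atp5mc3 read 13.02 on PA array 4 where all 3 others read 12.94, and Atp5me read 10.98 on SED array 4 where the others read 11.09 to 11.11. Cox7b2, below the filter, read 2.79 on EX array 3 where the others read 3.06 to 3.10.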

How the results depend on the processing

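limma called 0 members under every alternative run, including a threshold of 0.1 and the 12 fits that each left out 1 array. Of 276 recomputed median differences, 275 moved by less than the spread between arrays. The exception was complex III in PA against SED, 0.105 with all arrays and 0.0142 without sedentary array 1, with a range of 0.0142 to 0.14 over the arrays left out in turn. Sedentary array 1 itself widens the spread between SED arrays: the SD of the members' mean deviation was 0.15 with it and 0.06 without. The count of 275 therefore cannot show that the medians did not depend on that array. The median over all members in PA against SED, which is among the 275, was 0.08 with all arrays. It ranged from -0.003 to 0.11 when arrays were left out, and that in EX against SED from -0.02 to 0.06. Array weights, which gave sedentary array 1 a weight of 0.147, and leaving that array out each turned the sign of 4 medians. The cause was not tested. Counting the 7 probe sets with several symbols, an alternative chosen after seeing the data, gave 0 calls, and medians were not recomputed for it.

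With the replicate number as a block, limma called 0 members and the medians were 0.03 in EX against SED, 0.08 in PA against SED and -0.04 in EX against PA, so the block changed no call. Signal near the filter limits Cox6b2, and no probe set gives cytochrome c alone.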
